A study of Mus musculus with 4 samples.

Results

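The genes described here encode proteins that the gut lining makes in an acute phase and oxidative defence: the dual oxidase Duox2 and its partner Duoxa2, the serum amyloid A genes Saa1, Saa2 and Saa3, lipocalin 2 (Lcn2), the calprotectin chains S100a8 and S100a9, and the protease inhibitor Serpina3n. They were taken by name, through the probe sets annotated to each of them alone. Of the 9 genes, 7 have such a probe set, among 22180 genes with one in the table. For Saa1 and Duoxa2 the table holds only probe sets annotated to a pair of genes, Saa1 with Saa2 and Duoxa2 with Duoxa1, and these are given below as signals of the pair. Of the 7 genes, 4 (Saa3, Duox2, Lcn2 and Serpina3n) passed the filter on low values, among 13083 of all genes. Saa2, S100a8 and S100a9 did not.

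RNA came from caecal tissue of C57Bl/6 mice aged 21 weeks, and every group ate a diet depleted of n-3 PUFA, so no value here shows what that diet does. The mice were apoE KO with prebiotics, apoE KO without, wild type (WT) with prebiotics and WT without. Prebiotics (Orafti) were supplied daily, 250 mg to each mouse, in the final 15 days. Each group is 1 Affymetrix array of RNA pooled from 6 mice that had been chosen on RNA quality, so no group has a replicate and differences between mice stay hidden. For both WT arrays, 3 label fields name one diet and 1 field, the description, names the opposite one. They are called by their titles here, and every prebiotic result over both genotypes depends on that choice.

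Serum amyloid A proteins are small lipid-binding proteins. The liver secretes them in large amounts in the acute phase, and the epithelium of the large bowel and ileum makes them in response to microbes that adhere to it and to cytokines such as interleukin 22. Dual oxidases sit in the apical membrane of epithelial cells and release hydrogen peroxide into the lumen, and the maturation factor Duoxa2 carries Duox2 to the cell surface. Lipocalin 2 binds bacterial siderophores and so keeps iron from microbes, and calprotectin, a pair of S100 proteins carried mainly by neutrophils, binds zinc and manganese. Serpina3n, a mouse relative of human alpha-1-antichymotrypsin, inhibits serine proteases. C/EBP, STAT and NF-kB factors are known to act on promoters of acute phase genes.

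The serum amyloid A promoters are shown because the pair signal of Saa1 and Saa2 and the signal of Saa3 were both higher with prebiotics in each genotype. The 250 bases before each annotated start, from RefSeq on build GRCm38.p6, are printed from 5′ to 3′ on the strand of the gene. They are chr7:46742981-46743230 on the minus strand for Saa1, chr7:46751583-46751832 on the plus strand for Saa2 and chr7:46715677-46715926 on the minus strand for Saa3. Capitals mark the letters TTGCNNAA, a C/EBP motif, read on either strand.
Saa1: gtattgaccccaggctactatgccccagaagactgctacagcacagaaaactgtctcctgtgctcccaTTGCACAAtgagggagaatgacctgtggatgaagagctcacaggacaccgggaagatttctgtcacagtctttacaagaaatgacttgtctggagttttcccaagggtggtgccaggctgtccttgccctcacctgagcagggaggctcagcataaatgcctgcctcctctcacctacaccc
Saa2: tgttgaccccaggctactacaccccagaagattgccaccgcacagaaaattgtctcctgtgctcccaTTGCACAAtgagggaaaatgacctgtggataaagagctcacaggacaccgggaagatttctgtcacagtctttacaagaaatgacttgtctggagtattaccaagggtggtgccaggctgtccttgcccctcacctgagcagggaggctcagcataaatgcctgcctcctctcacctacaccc
Saa3: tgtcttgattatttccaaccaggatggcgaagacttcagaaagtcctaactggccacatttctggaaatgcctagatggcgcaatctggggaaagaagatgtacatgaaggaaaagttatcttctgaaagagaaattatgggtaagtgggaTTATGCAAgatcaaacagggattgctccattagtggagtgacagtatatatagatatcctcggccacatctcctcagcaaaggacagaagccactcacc

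Saa1 and Saa2 start 8853 bases apart and run in opposite directions. Their windows of 300 bases, which run on 50 bases from the start, share 95.3% of 301 aligned columns, against 50.9% of 324 columns for Saa1 and Saa3. All 9 genes had a window in the RefSeq table. The C/EBP letters lie in 5 of these 9 windows, those of Saa1, Saa2, Saa3, Lcn2 and S100a9, and in 10.8% of the 32851 windows of the table. With the start counted as position 1 and no position 0, the match spans -182 to -175 in Saa1, -183 to -176 in Saa2 and -99 to -92 in Saa3, where it is on the opposite strand. The letters TTCNNNGAA, a STAT motif, were found in 0 of 9 windows and in 8.3% of all windows, and the NF-kB consensus in 0 of 9 and in 8.46%. TATAAA occurs in 3 of 9 windows, those of Duoxa2, S100a8 and S100a9, and in 13.6% of all. It spans -30 to -25 in Duoxa2 and in S100a8, but 1 to 6 in S100a9, on the annotated start itself. These motifs were searched on both strands, and a match is a run of letters, not a binding site.

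In KO and in the mean over both genotypes, the largest differences of the set belonged to serum amyloid A. The probe set annotated to both Saa1 and Saa2, singled out after its values were seen, read 7.44 log2 units on the KO array with prebiotics and 3.95 on the KO array without. On the WT array titled with prebiotics it read 7.23, and on the WT array titled without it read 4.41. In each pair the array without lay nearer the array median, which was 2.99 to 3.01 for probe sets with 1 symbol. The log2 difference was 3.49 in KO (11.2-fold) and 2.82 in the WT pair (7.05-fold), with no test of either. RMA compresses differences close to background, so these folds are approximate.

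Because that probe set names a pair of genes, it was outside the fit over genes. A limma fit over all 23080 probe sets that reached the limit gave a difference of 3.15 (SE 0.21, adjusted p = 0.38). That fit called 0 probe sets higher (0% of those tested) and 0 lower, with 2206 at an unadjusted p under 0.05. A second fit, over the 14587 probe sets with 1 or more symbols, was run only after the first had made no call. It gave the same difference with an SE of 0.17 and an adjusted p of 0.00051, and called 90 probe sets higher, 0.617% of those tested. The call for this probe set therefore depends on which probe sets are tested with it, though its difference ranked 1 from the top in both fits. With the WT arrays exchanged the difference was 0.34 (adjusted p = 1 over every probe set).

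**Figure D1:**
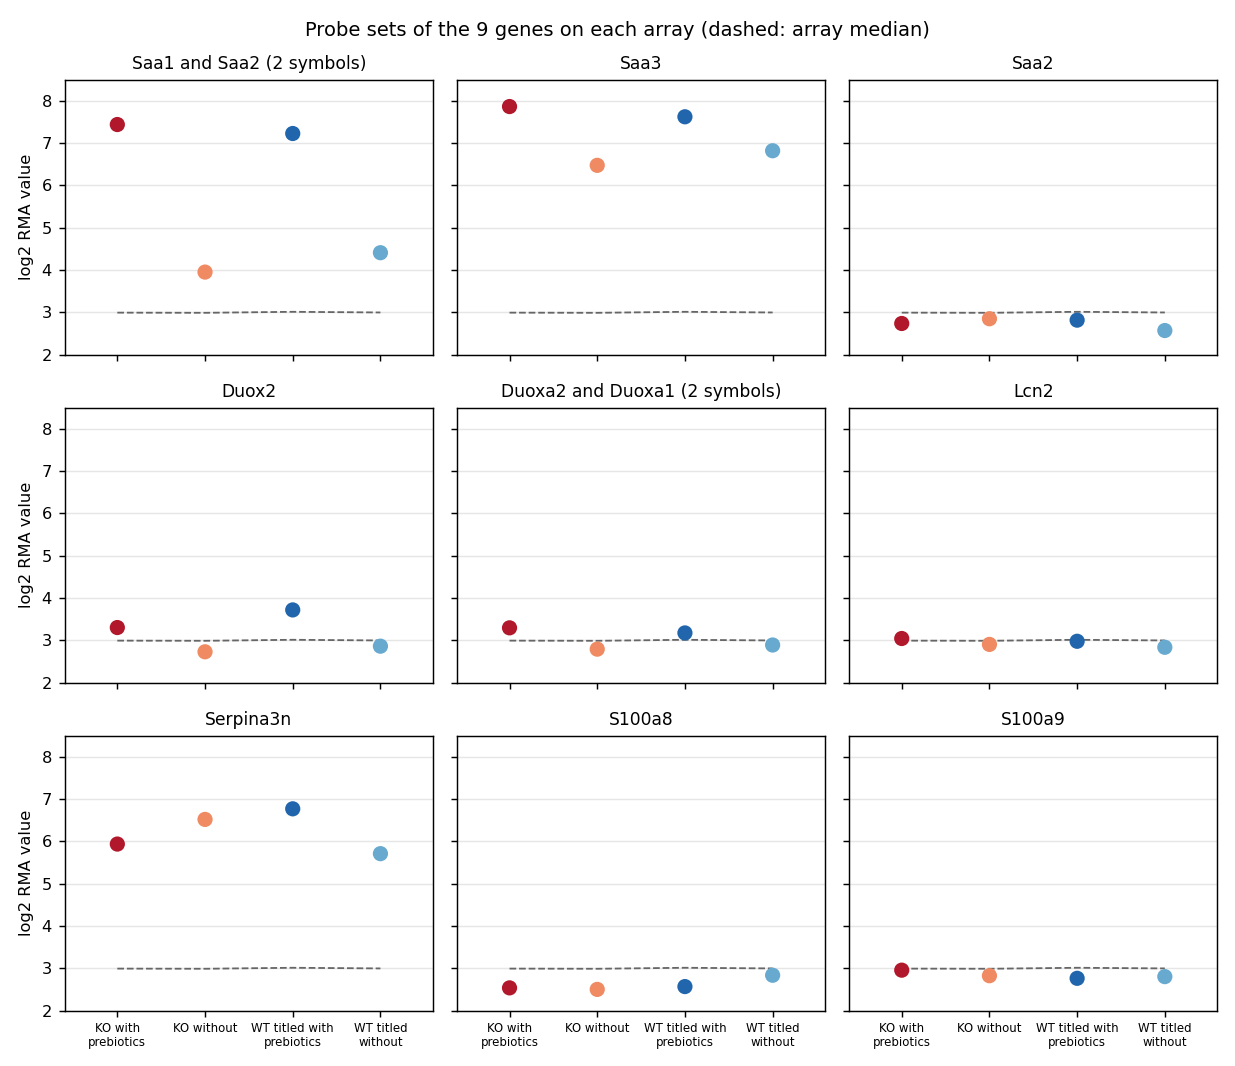
Each panel plots the log2 RMA value (vertical axis) of 1 probe set on the 4 arrays, KO with and without prebiotics and WT titled with and without, with the array median as a dashed line; panels with 2 symbols are pair signals. The Saa1 and Saa2 pair signal reads 7.44 and 7.23 with prebiotics against 3.95 and 4.41 without, Saa3 lies above the median on all 4 arrays, and Saa2, S100a8 and S100a9 lie below it.

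Saa3, the serum amyloid A gene of extrahepatic tissues such as gut epithelium and macrophages, rose with prebiotics. It read 7.87 on the KO array with prebiotics and 6.48 on the KO array without, and 7.62 on the WT array titled with prebiotics and 6.82 on the one titled without. Each of the 4 values was well above the array median. The difference was 1.39 in KO (2.62-fold) and 0.80 in the WT pair (1.74-fold). In limma over both genotypes it was 1.10 (SE 0.14, adjusted p = 0.0084 over 13083 genes), rank 29 from the top. That fit called 130 genes higher (0.994% of those tested) and 34 lower (0.26%), or 216 and 108 with each array centred on its median, and 0 with the WT arrays exchanged. The fit has 1 residual degree of freedom, which is the difference between the genotypes' effects, and the call is lost without the variance trend (adjusted p = 0.072), with every probe set tested (adjusted p = 0.40) and with the WT arrays exchanged (difference 0.29, adjusted p = 1).

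The single-symbol probe set of Saa2 did not follow the pair signal. It read 2.74 on the KO array with prebiotics, 2.85 on the KO array without, 2.82 on the WT array titled with prebiotics and 2.57 on the one titled without. All 4 values lie under the array median, so this probe set gave no level that could be compared. Saa1 and Saa2 are near-identical copies, and which of them the pair signal stands for is not known here. Saa4, the constitutive member of the family, was also under the limit on all arrays, with 2.71 and 2.58 in KO with and without prebiotics and 2.62 and 2.80 in WT titled with and without.

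Duox2, the oxidase itself, read higher with prebiotics, but close to the array median and with a call that depends on the filter. It read 3.30 on the KO array with prebiotics and 2.73 on the KO array without, and 3.72 on the WT array titled with prebiotics and 2.86 on the one titled without. Both arrays with prebiotics were above the limit of the filter and both without were below it, so Duox2 entered the fit only through the prebiotic arrays. Its log2 difference was 0.57 in KO and 0.86 in the WT pair, and these sizes are approximate because the values without prebiotics are under the limit. In limma over both genotypes it was 0.72 (SE 0.14, adjusted p = 0.048), rank 89 of 13083. This call cannot count as support, since the arrays where Duox2 was high let it into the fit. It also sits at the threshold. The adjusted p was 0.053 with 1 median over all arrays as the filter, which was tried first. It was 0.072 with no filter, 0.13 without the variance trend and 0.44 with every probe set tested. With the WT arrays exchanged the difference was -0.14.

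The probe set of Duoxa2 and Duoxa1 read 3.30 on the KO array with prebiotics and 2.79 on the KO array without, and 3.17 and 2.89 on the WT arrays titled with and without. Its difference was 0.50 in KO and 0.29 in the WT pair, also against values under the limit. Over both genotypes it was 0.39 (SE 0.15, limma adjusted p = 0.53 in the fit over every probe set). Duoxa1 alone and Duox1, the paralogous pair, were under the limit on all 4 arrays, at 2.72 to 2.83 for Duoxa1 and 2.57 to 2.70 for Duox1. By the RefSeq starts used here, Duox2 and Duoxa2 begin 673 bases apart in opposite directions.

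Among 9 tested oxidase and peroxidase partners, 0 passed the test in either direction. Their median difference was 0.27 with 9 of 9 above 0, beside a median of 0.02 over all genes and 55.1% of all genes above 0. In KO 5 of 8 were above 0 (median 0.12), and in the WT pair by title 8 of 8 were (median 0.32). The largest differences over both genotypes belonged to subunits of the epithelial NADPH oxidase Nox1 and to a peroxide channel. Noxa1, its activator, had 0.44 (adjusted p = 0.19), the membrane subunit Cyba 0.40 (adjusted p = 0.22), the aquaporin Aqp3 0.35 (adjusted p = 0.35) and Nox1 0.32 (adjusted p = 0.29). Aqp3 reached the limit on the WT array titled with prebiotics alone (3.25).

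Lcn2 lay at the array median, with 3.04 on the KO array with prebiotics, 2.90 on the KO array without, 2.98 on the WT array titled with prebiotics and 2.84 on the one titled without. Its difference was 0.14 in both pairs, and 0.14 over both genotypes (SE 0.13, limma adjusted p = 0.71). It reached the limit on the KO prebiotic array alone, so a change in Lcn2 was not measurable at this signal. Of 9 tested genes of iron and siderophore handling, 0 passed the test, with a median of 0.01. Hmox1 (heme oxygenase 1) had -1.02 (adjusted p = 0.21), the iron exporter Slc40a1 -0.77 (adjusted p = 0.14) and the transferrin receptor Tfrc -0.64 (adjusted p = 0.12). These 3 genes were at least 2-fold lower in the WT pair, where 0.18% of 12223 genes were, and in KO none of the 9 was, where 0.139% of 12216 genes were. Heph went the other way, with 0.41 (adjusted p = 0.097), 0.58 in KO and 0.25 in the WT pair. Over both genotypes 5 of the 9 were above 0.

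The calprotectin chains were under the limit on every array. S100a8 read 2.54 on the KO array with prebiotics, 2.50 on the KO array without, 2.57 on the WT array titled with prebiotics and 2.84 on the one titled without. S100a9 read 2.96, 2.82, 2.76 and 2.80 on the same arrays. No difference between groups can be read from such values. Other S100 genes and calprotectin receptors had a median difference of -0.02 over 11 tested genes. Of them 1 was called: Cd36, a fatty acid transporter and scavenger receptor that also binds serum amyloid A, fell by 0.95 (SE 0.13, limma adjusted p = 0.0089).

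Serpina3n had differences of opposite sign in the genotypes. It read 5.94 on the KO array with prebiotics and 6.52 on the KO array without, but 6.77 on the WT array titled with prebiotics and 5.71 on the one titled without. All 4 values were well above the array median. The difference was -0.58 in KO and 1.06 in the WT pair (2.09-fold), and over both genotypes it was 0.24 (SE 0.30, limma adjusted p = 0.79). KO minus WT was accordingly -0.83 with prebiotics and 0.81 without, and the difference of the effects, -1.64, has no test with 1 array a group. With the WT arrays exchanged the WT difference turns to the sign of the KO one, and the difference over both genotypes becomes -0.82 (adjusted p = 1). Of its relatives in serpin clade A, 14 had a single-symbol probe set, and 0 of them reached the limit on any array.

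**Figure D2:**
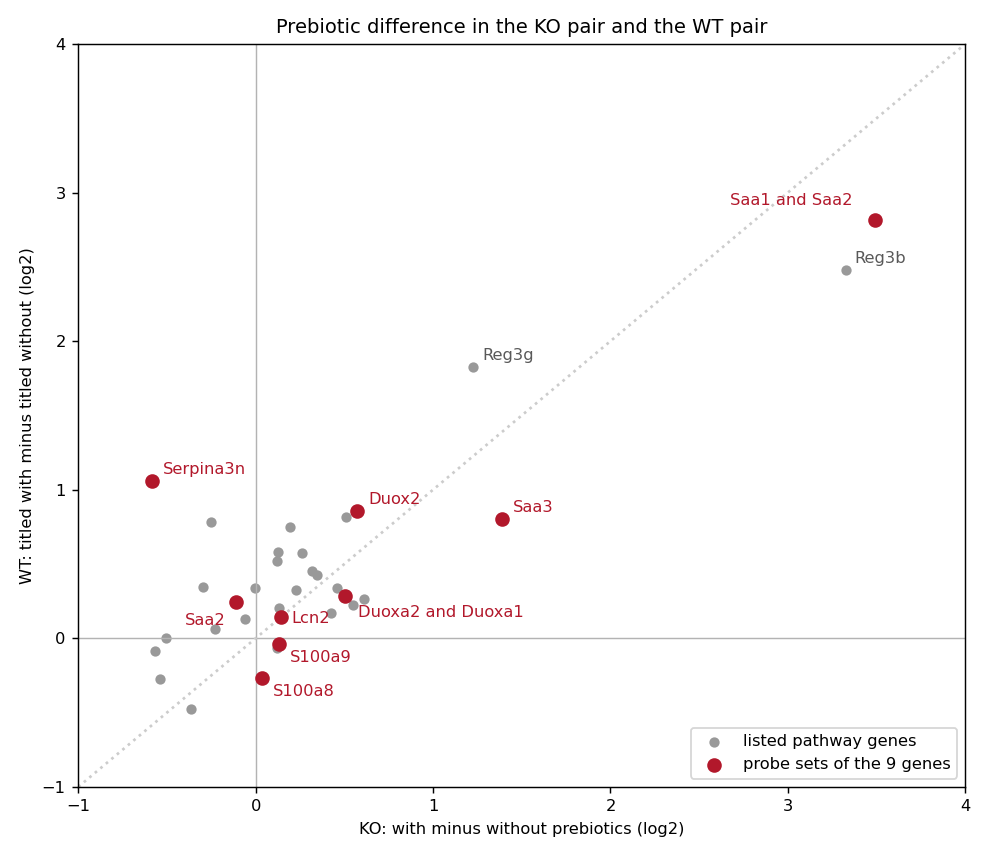
The horizontal axis is the log2 difference with minus without prebiotics in KO and the vertical axis the same in the WT arrays by title; red points are the probe sets of the 9 genes, grey points the named genes of 5 pathway lists, and the dotted line marks equal differences. The Saa1 and Saa2 pair signal lies at 3.49 and 2.82 next to Reg3b, and Serpina3n lies on the other side of 0 in KO, at -0.58 against 1.06.

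Counted at 2-fold without a test, 1 of 4 genes of the set was higher on the KO prebiotic array, Saa3, against 0.475% of all genes. In the WT pair by title 1 of 3 was higher, Serpina3n, against 0.335%. In either pair 0 were 2-fold lower. With so few genes measured these shares describe single genes.

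By genotype no gene of the set was called. Apoe, the gene knocked out, read 3.13 and 2.83 on the KO arrays with and without prebiotics, against 4.09 and 3.90 on the WT arrays, which fits the genotype labels. Where this probe set lies relative to the deletion is not known here. For Saa3 the mean was 7.17 in KO and 7.22 in WT (log2 difference -0.05, SE 0.44), and for the Saa1 and Saa2 pair signal it was 5.70 in KO and 5.82 in WT. Duox2 averaged 3.02 in KO and 3.29 in WT (-0.27, SE 0.30), and Serpina3n 6.23 in KO and 6.24 in WT. The limma adjusted p was 0.999 for each of Saa3, Duox2, Lcn2 and Serpina3n. Over all genes that fit called 0 higher (0%) and 0 lower (0%), with 430 at an unadjusted p under 0.05. It did not call Apoe either (difference -1.02, limma adjusted p = 0.78), so a missing call does not show that a genotype difference is absent. The fit also leaves diet in its residual. With diet as a block the SE of Saa3 was 0.14, again with no call for the set.

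Cytokine signals that induce these genes were mostly too low to read, while some of their receptors were measured. Il22, Il17a, Il6 and Tnf, which encode inducing cytokines, were under the limit on all 4 arrays. Of 15 tested cytokine and receptor genes 0 passed the test, with a median of 0.17. Il22ra1, the epithelial chain of the interleukin 22 receptor, read 6.11 in KO with prebiotics and 5.60 in KO without, and 6.19 and 5.37 in WT titled with and without. Over both genotypes its difference was 0.66 (SE 0.13, limma adjusted p = 0.054). The tumour necrosis factor receptor Tnfrsf1a had 0.47 (adjusted p = 0.19), the interleukin 1 receptor Il1r1 -0.42 (adjusted p = 0.088) and the oncostatin M receptor Osmr -0.41 (adjusted p = 0.23).

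All 21 signal relays and transcription factors with a single-symbol probe set were measured, and 0 passed the test (median 0.06). The adaptor Myd88 had 0.42 (adjusted p = 0.19), the NF-kB partner Bcl3 0.39 (adjusted p = 0.27), its relative Nfkbiz 0.30 (adjusted p = 0.38) and Relb 0.27 (adjusted p = 0.42). Other acute phase proteins likewise had 0 of 11 called, with a median of 0.12. Among them complement factor B (Cfb) had 0.39 (adjusted p = 0.21) and complement C4b 0.38 (adjusted p = 0.24). Orm1 (0.11) and Hp (-0.03), which encode the classical liver reactants orosomucoid 1 and haptoglobin, read at most 3.08 and 3.01 on any array; both were singled out after their values were seen.

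Other inducible defence genes of the epithelium had 3 of 14 called higher, against 0.994% of all genes. Reg3b, a bactericidal C-type lectin, read 6.51 in KO with prebiotics and 3.18 in KO without, and 6.64 and 4.17 in WT titled with and without. Its difference was 2.90 (SE 0.19, limma adjusted p = 0.00021), and that of its relative Reg3g was 1.53 (SE 0.17, adjusted p = 0.0037). The third was Lypd8, which keeps flagellated bacteria off the colon surface, with 0.21 (SE 0.04, adjusted p = 0.033). The list's median was 0.10, with 10 of 14 above 0. Ptgs2 had -0.33 (adjusted p = 0.40), with -0.57 in KO and -0.09 in the WT pair. Retnlb had -0.25 (adjusted p = 0.37), with -0.51 in KO and 0.00097 in the WT pair. Nos2, Cxcl1 and Cxcl5, often induced with the genes of the set, were under the limit on all arrays. Receptors and lipid partners of serum amyloid A had 1 of 9 called, Cd36 again. The apolipoprotein Apoa1, which serum amyloid A displaces from lipoprotein particles, had 0.53 (adjusted p = 0.13) and the lipoprotein receptor Scarb1 -0.49 (adjusted p = 0.13).

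**Figure D3:**
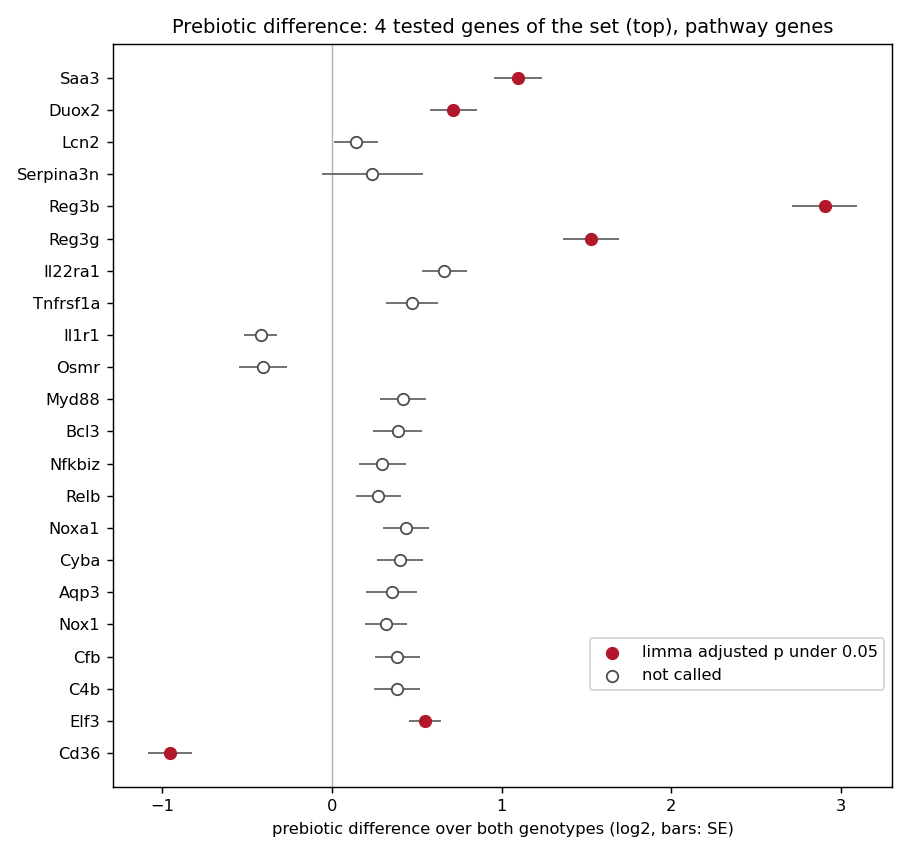
Points give the log2 difference with minus without prebiotics over both genotypes and bars its SE in limma, for the 4 tested genes of the set at the top and named pathway genes below; filled points have an adjusted p under 0.05. Filled points are Saa3 at 1.10, Duox2 at 0.72, Reg3b at 2.90, Reg3g at 1.53, Elf3 at 0.55 and Cd36 at -0.95. Duox2 passed the filter only through the arrays with prebiotics.

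By the smallest root mean square distance between values centred on their own mean over the 4 arrays, the genes most like Saa3 were Ovol1 (0.11 log2 units), Ereg (0.12) and Mir665 (0.12), among 579 genes that vary enough to compare. Those most like Duox2 were Gm5292 (0.049), Mir3058 (0.075) and Pyy (0.077), among 2129. For Serpina3n they were Rsph3b (0.082), Igkj1 (0.093) and Mir1190 (0.15). The Saa1 and Saa2 pair signal was nearest to Reg3b (0.26), Slc10a2 (0.32) and Nts (0.55), among 24 genes. Likeness to Lcn2 is not meaningful, since 12497 genes vary enough to compare and Lcn2 hardly varies. With 4 arrays that share a diet and a scale, such nearness is a description.

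Markers of the cells that could carry these transcripts were read beside them, and in whole tissue a change in the number of cells of a type and a change in RNA per cell cannot be told apart. General epithelial markers were high and even, with a mean of 9.49 in KO with prebiotics and 9.37 in KO without, and 9.49 and 9.44 in WT titled with and without. Of 10, 1 was called, the epithelial transcription factor Elf3, which rose by 0.55 (SE 0.10, limma adjusted p = 0.029). Mature colonocyte markers had 6 of 10 called higher with prebiotics, against 0.994% of all genes. Their mean was 10.18 in KO with prebiotics and 9.67 in KO without, and 10.16 and 9.77 in WT. Among them Slc26a3, a chloride exchanger, rose by 0.58 (adjusted p = 0.00081) and Car4, a carbonic anhydrase, by 0.59 (adjusted p = 0.023).

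Small intestinal enterocyte markers had 2 of 9 called higher (against 0.994% of all genes), Slc10a2, the ileal bile acid transporter, with 2.65 (adjusted p = 2.3e-05) and Alpi, an alkaline phosphatase, with 1.53 (adjusted p = 0.0013). Their mean over the list was 5.60 in KO with prebiotics and 4.72 in KO without, and 5.32 and 4.93 in WT titled with and without. Over both genotypes 6 of 9 were above 0, while Rbp2 (-0.24), Fabp1 (-0.05) and Apoc3 (-0.04) were below. Sis had 1.01 (adjusted p = 0.16), with 1.82 in KO and 0.20 in the WT pair. Apoa4 had 0.82 (adjusted p = 0.24), with 1.59 and 0.04. At 2-fold 4 of 8 were higher in KO (against 0.475% of all genes) and 2 of 9 in the WT pair (against 0.335%). Serum amyloid A and Reg3 genes are known to be expressed in ileum. The part that the makeup of the sampled tissue has in the serum amyloid A and Duox2 results was not tested.

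Most neutrophil markers were under the limit. Of 19 measured, 14 were under the limit on all arrays, Mpo and Elane, which define the lineage, among them, and 0 of the 5 tested were called. The mean over the 19 was 2.84 in KO with prebiotics and 2.81 in KO without, and 2.94 and 2.82 in WT titled with and without. Ly6g stood out on the WT array titled with prebiotics, with 4.45 against 2.98 on the one titled without, and read 2.94 and 3.03 in KO with and without. Cd177 was above the limit on all 4 arrays, with 3.50 and 3.22 in KO with and without prebiotics and 3.55 and 3.13 in WT titled with and without (difference 0.35, adjusted p = 0.29). Mmp9 had a difference of 0.29 (adjusted p = 0.38), with 0.26 in KO and 0.31 in the WT pair. Il1r2 went the other way, with -0.31 (adjusted p = 0.37), -0.45 in KO and -0.17 in the WT pair. Over both genotypes 3 of the 5 tested were above 0. The part of neutrophils in the results was not tested. Macrophage and monocyte markers had 0 of 13 called, with means of 4.30 and 4.23 in KO with and without prebiotics and 4.19 and 3.88 in WT titled with and without. Over both genotypes 10 of 13 were above 0 (median 0.13), beside 55.1% of all genes. Ly6c2 had 0.53 (adjusted p = 0.11), with 0.51 in KO and 0.54 in the WT pair. Cd68 had 0.47 (adjusted p = 0.16), with 0.33 and 0.62. Mrc1 had 0.64 (adjusted p = 0.32), with -0.04 and 1.32. The part of macrophages in the Saa3 result was not tested.

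Hepatocyte markers had 1 of 6 tested genes called, Tat, with 0.79 (adjusted p = 0.029), and 5 of 6 above 0 (median 0.33). Cps1 had 0.48, Ttr 0.39 and Apob 0.27, none of them called, and Apob read 9.68 to 10.01 over the arrays. Alb, the defining one, had -0.14. It read 3.37 and 3.49 in KO with and without prebiotics and 2.86 and 3.02 in WT. Adipocyte markers had 1 of 7 called, Fabp4, which fell by 1.09 (adjusted p = 0.011). Goblet cell markers had 0 of 9 called, with a mean of 9.32 and 9.54 in KO with and without prebiotics and 9.54 and 9.56 in WT. Fibroblast markers had 1 of 9 called, the collagen chain Col1a1, with 1.19 (adjusted p = 0.0018), and T cell markers had 0 of 3. B cell markers had 0 of 7 called, with a mean of 2.84 and 3.47 in KO with and without prebiotics and 3.54 and 3.59 in WT titled with and without. In KO 2 of 6 were at least 2-fold lower with prebiotics (against 0.139% of all genes), Cd79a (-1.36) and Cd79b (-1.19), and 0 of 6 were above 0.

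**Figure D4:**
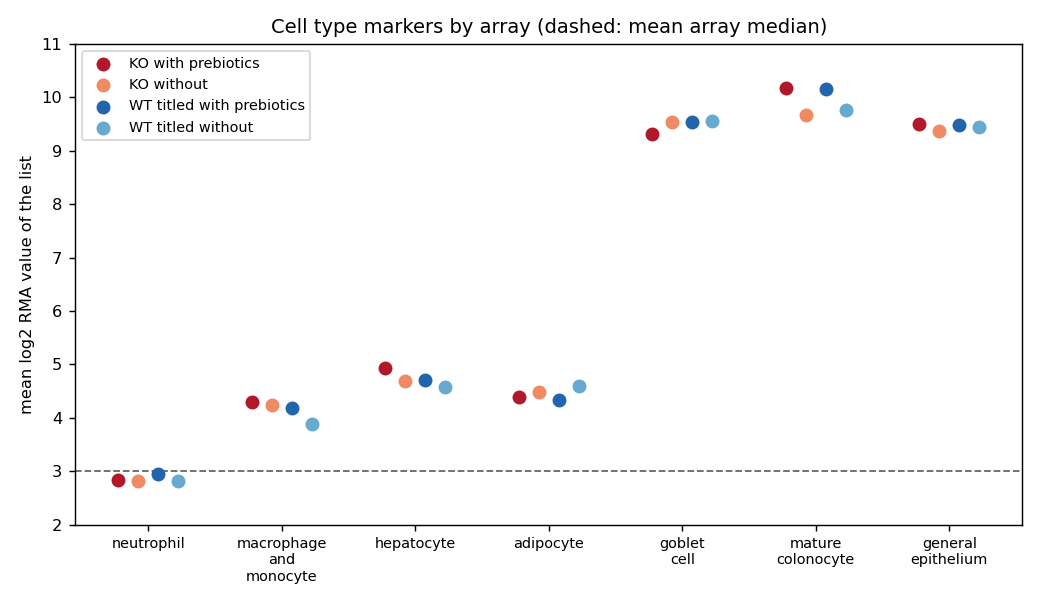
The vertical axis is the mean log2 RMA value of each marker list, with 1 point for each array in the order KO with and without prebiotics, WT titled with and without, and the dashed line is the mean of the array medians. Neutrophil markers lie at 2.81 to 2.94, below the dashed line, and mature colonocyte markers at 10.18 and 10.16 with prebiotics against 9.67 and 9.77 without.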

How the data were processed

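Expression in 4 pooled caecal RNA samples was measured on Affymetrix arrays from 100 ng of RNA each. The deposited values are log2 values that the authors made with Affymetrix Expression Console and RMA, per the submitters' processing notes; no version is given, and the log base is taken from RMA. The genome build of the array is not given in the sources used here. RMA subtracts background, brings arrays to a common distribution and summarises probes. With 4 arrays, precision is limited by their number.

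The table holds 41345 probe sets, 23521 with 1 symbol, 1814 with several and 16010 with none. The probe set with the highest mean stood for its gene. A gene was tested if it reached that array's own median of single-symbol probe sets on at least 1 array. A single median over all arrays was tried first; it tested 13081 genes and did not call Duox2, and the limit per array replaced it after that result was seen. limma 3.58.1 in R 4.3.3 (lmFit, eBayes with trend) was fitted over all genes, for prebiotics with genotype as a term (1 residual degree of freedom) and for genotype, 2 KO against 2 WT arrays (2). Tests were two-sided, with Benjamini-Hochberg adjustment and calls at an adjusted p under 0.05. Each count of prebiotic calls in a list stands beside 0.994% of all genes called higher and 0.26% called lower. The p-values come from these 4 pooled samples only and do not measure differences between mice. eBayes joins each gene's own residual with the variance of all genes tested. A p-value therefore does not measure the spread of that gene alone. Single arrays were compared with no test. The fit was tested on simulated data.

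All 9 genes are named. From each list up to 4 genes with the largest prebiotic difference and up to 2 with the largest genotype difference could be named. Genes outside that rule, such as Lypd8, Duox1 and Alb, were chosen after their values were seen. The genes and lists were chosen with earlier results of these data known. Alternatives are in the closing section.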

Additional observations from a re-analysis of the deposited data

Results flagged for a closer look

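Serpina3n had log2 differences of opposite sign in the genotypes. With minus without prebiotics was -0.58 in KO, and titled with minus titled without was 1.06 in WT. With 1 array a group this difference was not tested, and with the WT arrays exchanged both differences have the same sign.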

How the results depend on the processing

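Of the 4 genes of the set that were tested, 2 were called higher with prebiotics, Saa3 and Duox2, against 0.994% of all 13083 genes. Duox2 entered the fit only through the arrays with prebiotics. The count was 1 with no filter, with the 75th percentile filter, with 1 median over all arrays or with every named probe set tested, and 0 without the variance trend, with every probe set tested or with the WT arrays exchanged. Over all genes, 130 higher and 34 lower calls became 68 and 17 with no filter, 216 and 108 with each array centred on its median, 21 and 4 without the trend, 0 and 0 with the WT arrays exchanged and 0 and 0 with every probe set tested. Cyclic loess gave 63 lower. Leaving out 5 genes whose residual is exactly 0 gave 200 higher and 56 lower. The last of these settings and the probe-set fits were chosen after seeing the data, as was the step from the single median, tried first, to a limit per array. The causes were not tested.

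With the WT arrays exchanged the differences were -0.14 for Duox2, -0.0011 for Lcn2, -0.82 for Serpina3n and 0.29 for Saa3, and 0.34 for the Saa1 and Saa2 pair signal (limma adjusted p = 1 over every probe set). Leaving out 1 array leaves the prebiotic difference of 1 genotype, with no test: 0.57 to 0.86 for Duox2, 0.80 to 1.39 for Saa3 and -0.58 to 1.06 for Serpina3n.

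For genotype, 0 genes were called either way; diet as a block gave 8 higher and 4 lower, and leaving out 1 array 0 to 5 higher and 0 to 2 lower. Leaving out 1 array moved the genotype difference between -0.70 and 0.15 for Duox2, -0.75 and 0.64 for Saa3, -0.0041 and 0.14 for Lcn2 and between -0.54 and 0.52 for Serpina3n, with no call. The fit with diet as a block pairs KO with WT within each diet.

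At 1.5-fold, 321 of 12216 genes were higher and 141 lower in KO, with 1 of the 4 genes of the set measured there higher. In the WT pair 253 of 12223 genes were higher and 136 lower, with 3 of 3 genes of the set higher. Duox2 is 1 of these 3, and it reached the limit there only on the array titled with prebiotics, so it cannot count as support. At 2-fold with the WT arrays exchanged, which turns each sign, 0 of 3 were higher and 1 lower in the WT pair, and 22 genes in all were higher and 41 lower. Values near the array median limit what can be read for Duox2 and Lcn2.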
